A study of Mus musculus with 19 samples.

Results

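The genes described here are 9 enzymes of methionine and choline metabolism, Mat1a, Gnmt, Ahcy, Bhmt, Bhmt2, Pemt, Cbs, Cth and Chdh, chosen by name as members of the pathway from 55836 genes in the count table. All 9 passed the filter on low counts, as did 13597 genes in all. Livers of 19 wild-type male C57BL/6 mice, 8 weeks old at the start, were sequenced as 1 poly(A) library per mouse after 8 weeks on either the control diet (CD, labelled chow, with 10 kcal% fat) or a diet that induces metabolic dysfunction-associated steatohepatitis (MASH), abbreviated MD, which holds 2% cholesterol, with fat at 40 kcal% and fructose at 20 kcal%. Mice were gavaged daily with vehicle (Veh) or with polyethylene microplastic (PE) at 2 mg per day, which gave the group CD + Veh with n = 4 and the groups CD + PE, MD + Veh and MD + PE with n = 5 each. The design asks how PE changes the liver on each diet and how the diet changes it with and without PE.

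Depth ranged from 13406037 to 15456729 assigned counts in the vehicle libraries and from 10398820 to 12757617 in the PE libraries, and since vehicle libraries were numbered 39 to 47 and PE libraries 48 to 57, effects of PE and of library order cannot be told apart. The hepatocyte markers Alb, Apoa1, Ttr, Apob and Serpina1e were abundant in every library, with a summed level of 45474 to 88698 CPM (counts scaled to the library total). Of the markers of other tissues, those of skeletal muscle reached 1986 CPM in the first MD + Veh library, with a median of 109 CPM in that group. Their highest sum was 24.3 CPM in CD + Veh and 319 CPM in CD + PE, and they stood at 1.79 CPM or less in all MD + PE libraries. By the rule given below, all 5 muscle markers were called higher in MD + Veh than in CD + Veh. All levels, these marker sums included, are CPM with library totals scaled by the trimmed mean of M values (TMM). A gene was called changed at a Benjamini-Hochberg adjusted p of edgeR's quasi-likelihood test below 0.05, over all genes tested, together with a log2 fold change of 0.38 or more in size. These are bulk samples, in which fewer cells of a type and less RNA per cell cannot be told apart.

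The liver is the main site of methionine breakdown. Mat1a makes S-adenosylmethionine, the methyl donor of the cell, and methyltransferases such as Gnmt and Pemt use it, leaving S-adenosylhomocysteine, which Ahcy splits into adenosine and homocysteine. Homocysteine is then either methylated back to methionine, by the folate-dependent Mtr or in the liver also by Bhmt and Bhmt2, or passed by Cbs and Cth to cysteine, and Chdh starts the oxidation of choline that provides betaine. Pemt links methionine to phospholipids, since it methylates phosphatidylethanolamine to phosphatidylcholine, a lipid that is needed for very-low-density lipoprotein secretion.

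Most of the pathway was highly expressed. Per kilobase of the canonical transcript, levels in CD + Veh were highest for Gnmt (1233 CPM per kb), followed by Bhmt (888), Ahcy (632) and Mat1a (541). They were lower for Pemt (220 CPM per kb), Cth (100), Bhmt2 (73.2), Cbs (54.9) and Chdh (27.2). In MD + Veh, Bhmt stood first at 1633 CPM per kb and Gnmt second at 1040. The plot of the 9 genes by library shows the values behind these means.

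**Figure D1:**
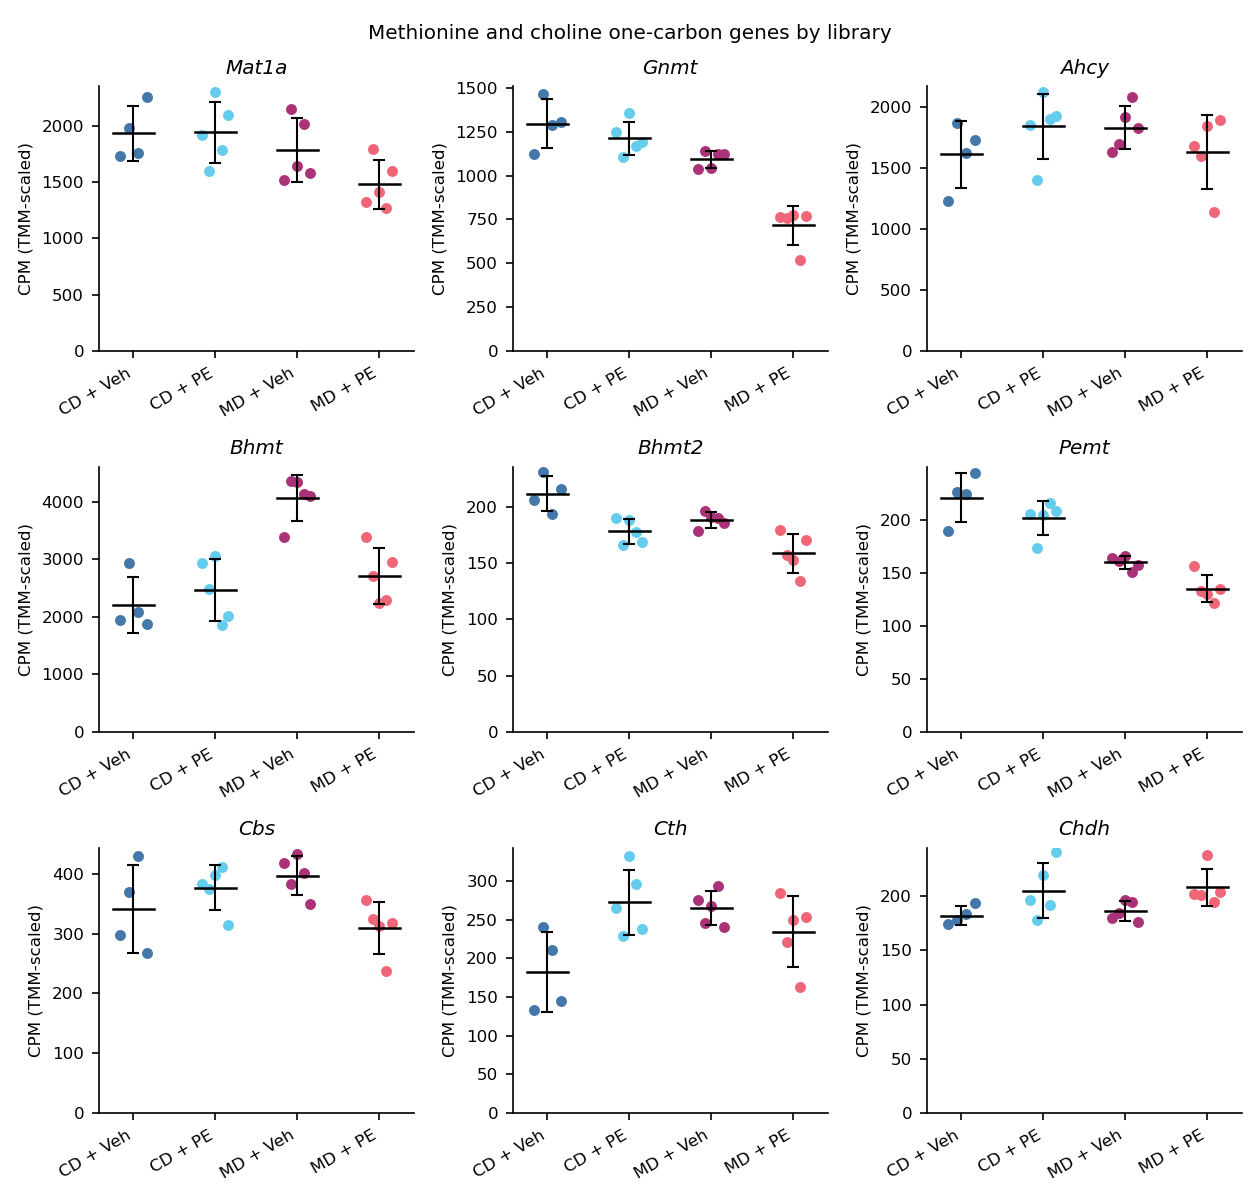
Level of each of the 9 genes in TMM-scaled CPM (y axis, from 0) for every library of the 4 groups (x axis), with 1 point per mouse and the mean ± SD as bars. For Gnmt all MD + PE points lie between 517 and 775 CPM, below every point of the other groups, and for Bhmt the MD + Veh points lie between 3380 and 4366 CPM, above all control-diet points.

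The diet alone changed 3 of the 9 genes. In MD + Veh compared with CD + Veh, Bhmt and Cth rose and Pemt fell, while 10.4% of all genes tested were called in this comparison, 644 higher and 766 lower. The median log2 fold change of the 9 genes was 0.03 and that of all genes was -0.0042. The other 6 did not pass, although 5 of 9 had an unadjusted p below 0.05, as had 3890 of 13597 genes tested.

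Bhmt, which transfers a methyl group from betaine to homocysteine, had the largest difference of the 9 genes. It stood at 1951, 2931, 2090 and 1873 CPM in CD + Veh and at 3380, 4366, 4336, 4142 and 4107 CPM in MD + Veh. The groups did not overlap, and such separation was seen for 16.2% of all genes tested. The log2 fold change was 0.88 ± 0.17 (SE), a 1.84-fold rise (adjusted p = 0.00162). Bhmt lies on the minus strand of chromosome 13 (GRCm39 chr13:93753183-93774469) and 68.7% of the 31-base stretches of its transcript also occur in other genes, mainly Bhmt1b, so that its count is uncertain to the extent that reads were shared out between them. Bhmt1b held between 0.876% and 1.35% of the Bhmt count in each library, and with Bhmt, Bhmt1b and Bhmt-ps1 counted as 1 gene the log2 fold change was again 0.88 (adjusted p = 0.00162).

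Cth, the cystathionine gamma-lyase that releases cysteine, rose by 0.54 ± 0.17 on the log2 scale (adjusted p = 0.0408). Its levels were 134, 241, 211 and 145 CPM in CD + Veh and 276, 245, 268, 294 and 241 CPM in MD + Veh. The highest CD + Veh mouse, at 240.589 CPM, lay just below the lowest MD + Veh mouse, at 241.317 CPM. Such separation was seen for 16.2% of all genes tested. The call was lost when CD + Veh replicate 1 (adjusted p = 0.124) or 4 (0.125) or MD + Veh replicate 1 (0.0593), 2 (0.0531), 3 (0.0691) or 4 (0.0788) was left out. It was also lost when the split of library numbers at 45 and 46 entered as a covariate (0.0771) and with no filter on low counts (0.0536). That split falls within MD + Veh, after replicate 3, with all CD + Veh libraries before it and all PE libraries after it. Cbs, which makes the cystathionine that Cth splits, averaged 341 ± 72.9 CPM (SD, n = 4) in CD + Veh compared with 397 ± 32.4 CPM (n = 5) in MD + Veh, a log2 difference of 0.22 that did not pass (adjusted p = 0.273 by edgeR).

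Pemt fell by 0.47 on the log2 scale (SE 0.0810, adjusted p = 0.000692). It was measured at 189, 226, 225 and 244 CPM in CD + Veh and at 164, 162, 166, 150 and 157 CPM in MD + Veh. Every MD + Veh mouse was below every CD + Veh mouse, and groups lay apart for 16.2% of all genes tested. The summed level of hepatocyte markers was 66722 to 82219 CPM in CD + Veh and 47551 to 60573 CPM in MD + Veh. Of the 5 markers 2, Alb and Apoa1, were called lower. Ttr (log2 fold change -0.37, adjusted p = 0.0158 by edgeR) was under the fold change limit. Serpina1e (-0.90, adjusted p = 0.320) and Apob (0.17) did not pass. Their part in the fall of Pemt was not tested.

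A score of circadian genes also separated these groups, lying between -3.88 and -2.56 in CD + Veh and between -1.66 and 0.20 in MD + Veh (in log2 units, 5 genes of one clock arm minus 10 of the other). With this score as a covariate none of the 9 genes was called in edgeR. Bhmt then had a log2 fold change of 0.61 (adjusted p = 0.199), Pemt of -0.39 (0.0955) and Cth of 0.48 (0.373). The score was lower in every CD + Veh library than in any library of the other groups, so that in this comparison diet and score cannot be told apart.

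The remaining genes gave smaller values on this contrast. Gnmt, the glycine methyltransferase that consumes surplus S-adenosylmethionine, averaged 1295 ± 139 CPM (SD, n = 4) in CD + Veh compared with 1093 ± 49.3 CPM (n = 5) in MD + Veh, with a log2 difference of -0.25 (adjusted p = 0.134 by edgeR). Bhmt2, which prefers S-methylmethionine as its methyl donor, differed by -0.17 (adjusted p = 0.154). Mat1a (-0.12, 95% interval -0.39 to 0.16), Ahcy (0.18, -0.13 to 0.49) and Chdh (0.03, -0.14 to 0.20) had intervals that include 0.

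**Figure D2:**
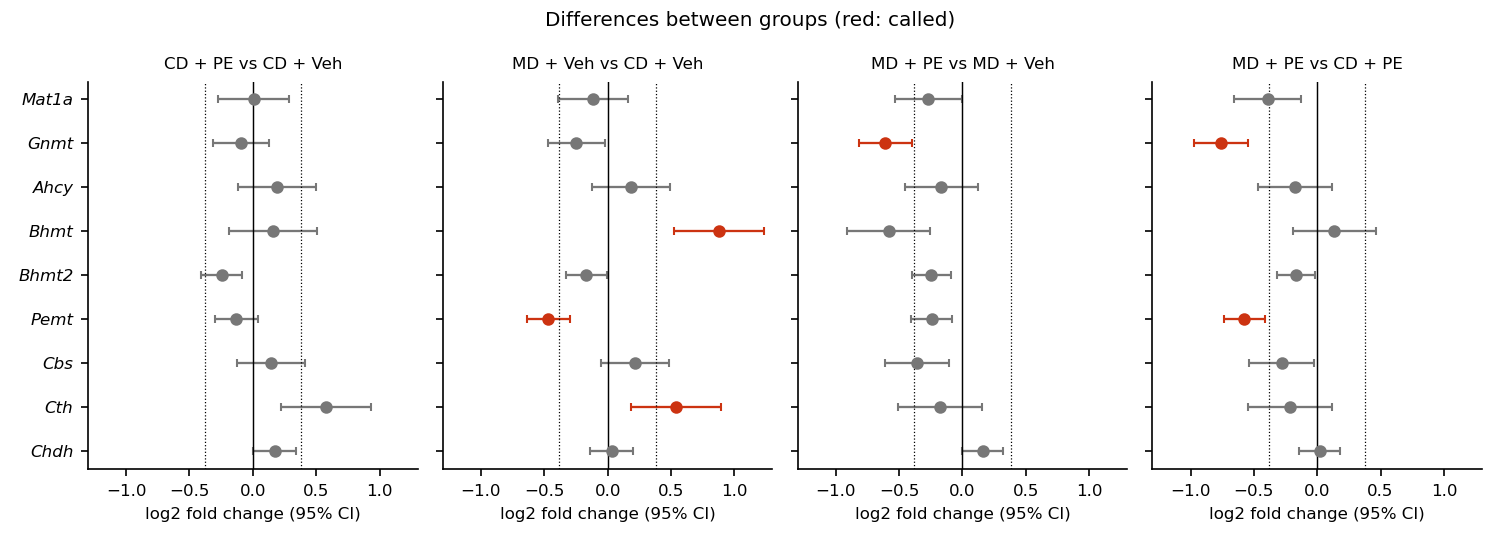
Log2 fold change (x axis) of the 9 genes (y axis) in the 4 comparisons between groups, from edgeR, with 95% confidence intervals as bars, dotted lines at the fold change limit of 0.38 and called genes in red. Bhmt (0.88) and Cth (0.54) are red to the right and Pemt (-0.47) to the left for the diet alone, only Gnmt (-0.61) is red for PE on the MD, and Gnmt (-0.76) and Pemt (-0.58) are red for the diet with PE.

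On the control diet PE changed none of the 9 genes by edgeR, where 2.92% of all genes tested were called, 166 higher and 231 lower. Of the 9 genes 3 had an unadjusted p below 0.05, as had 2377 of 13597 genes tested, and DESeq2 called 1, Cth. The largest difference was that of Cth, at 266, 229, 333, 296 and 238 CPM in CD + PE beside 134, 241, 211 and 145 CPM in CD + Veh. Of the 5 CD + PE mice 3 were above every CD + Veh mouse. The log2 fold change of 0.58 ± 0.17 (SE) did not pass in edgeR (adjusted p = 0.0652) and passed in DESeq2 (adjusted p = 0.0138), and in edgeR without CD + Veh replicate 2 (0.0315) or MD + PE replicate 4 (0.0344).

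Bhmt2 was the only one of the 9 genes whose groups did not overlap on the control diet, a separation seen for 7.83% of all genes tested. It stood at 206, 230, 193 and 216 CPM in CD + Veh and at 190, 166, 188, 178 and 169 CPM in CD + PE. The log2 difference of -0.25 ± 0.08 (SE) did not pass (adjusted p = 0.0790) and was also under the fold change limit. Chdh, the choline dehydrogenase of mitochondria, averaged 182 ± 8.55 CPM (SD, n = 4) compared with 205 ± 25.1 CPM (n = 5), a log2 difference of 0.17 with an adjusted p of 0.280 by edgeR.

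For Mat1a the difference on the control diet was 0.01 on the log2 scale, with a 95% interval of -0.27 to 0.29. Gnmt (-0.09, -0.32 to 0.13), Pemt (-0.13, -0.30 to 0.04), Ahcy (0.19, -0.12 to 0.50), Bhmt (0.16, -0.19 to 0.51) and Cbs (0.14, -0.13 to 0.41) likewise had intervals that include 0.

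On the MD, PE changed 1 of the 9 genes, Gnmt, which fell. In this comparison 1.08% of all genes tested were called, 20 higher and 127 lower. Gnmt was measured at 1036, 1138, 1042, 1121 and 1125 CPM in MD + Veh and at 765, 758, 775, 517 and 772 CPM in MD + PE. All 5 MD + PE mice were below all 5 MD + Veh mice, as in 3.57% of all genes tested, and 4 of them lay between 758 and 775 CPM while the other stood apart at 517 CPM. The log2 fold change was -0.61 ± 0.10 (SE), so that it fell by 34.4% (adjusted p = 0.00482), and without the outlying library, MD + PE replicate 4, it was -0.50 (adjusted p = 0.00324). Of the markers, the periportal sum was 5696 to 7217 CPM in MD + Veh and 4122 to 6259 CPM in MD + PE, and the pericentral sum was 7270 to 8578 and 8114 to 11716 CPM. Of the 6 periportal markers 1, Ass1, was called lower (median log2 fold change of the list -0.30), and of the 6 pericentral markers none was called (median -0.03, from -0.33 for Oat to 0.43 for Cyp2e1). The part of these zonal markers in the fall of Gnmt was not tested.

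Bhmt was the next largest on this contrast. Its levels of 3395, 2703, 2234, 2288 and 2956 CPM in MD + PE compare with 3380, 4366, 4336, 4142 and 4107 CPM in MD + Veh. Of the 5 MD + PE mice 4 lay below every MD + Veh mouse, and the groups overlapped by the highest MD + PE and the lowest MD + Veh value. The log2 difference of -0.58 ± 0.16 (SE) did not pass in edgeR (adjusted p = 0.0658). It passed in DESeq2 (adjusted p = 0.0111) and, in edgeR, without MD + PE replicate 1 (0.0439).

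Of the 9 genes, 8 had a negative log2 difference with PE on the MD and 6 an unadjusted p below 0.05 (2132 of 13597 genes tested), and their median was -0.25 beside -0.01 for all genes tested. Below the threshold were Cbs (-0.36, adjusted p = 0.142), Mat1a (-0.27, 0.307), Bhmt2 (-0.25, 0.0926), Pemt (-0.24, 0.117), Cth (-0.17, 0.652) and Ahcy (-0.17, 0.619). The exception was Chdh, which averaged 186 ± 9.05 CPM (SD, n = 5) in MD + Veh compared with 208 ± 17.3 CPM (n = 5) in MD + PE, a log2 difference of 0.16 that did not pass by edgeR (adjusted p = 0.319).

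With PE on both diets, 2 of the 9 genes fell on the MD, Gnmt and Pemt, where 4.61% of all genes tested were called, 230 higher and 397 lower. Gnmt was at 1247, 1106, 1355, 1166 and 1194 CPM in CD + PE, so that its highest MD + PE value of 775 CPM lay below all of them. Its log2 fold change was -0.76 ± 0.10 (SE, adjusted p = 8.46e-05), and it fell by 40.9%. Pemt stood at 205, 174, 205, 216 and 209 CPM in CD + PE and at 156, 133, 131, 122 and 135 CPM in MD + PE. No values overlapped, as in 6.18% of all genes tested, and the log2 fold change was -0.58 ± 0.08 (SE, adjusted p = 8.46e-05). Hepatocyte marker sums were 64475 to 88698 CPM in CD + PE and 45474 to 61413 CPM in MD + PE. Of the 5 markers 3 (Alb, Apoa1 and Ttr) were called lower in the same comparison, while Serpina1e (log2 fold change -1.18) and Apob (0.17) did not pass. Their part in these falls was not tested.

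Bhmt and Cth, which rose on the diet with vehicle, differed between the PE groups by 0.14 (95% interval -0.19 to 0.46) and -0.21 (-0.55 to 0.12). Mat1a, at 1917, 1602, 2303, 1789 and 2097 CPM in CD + PE and 1319, 1791, 1416, 1271 and 1603 CPM in MD + PE, differed by -0.39 ± 0.13 (SE) and did not pass in edgeR (adjusted p = 0.0686). It passed without CD + PE replicate 2 (0.0290) or MD + PE replicate 2 (0.0409). Cbs (-0.28), Bhmt2 (-0.17), Ahcy (-0.18) and Chdh (0.02) did not pass either.

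Whether the effect of PE differed between diets was tested by the interaction term, which called none of the 9 genes and 0.00735% of all genes tested by edgeR. DESeq2 called none of the 9 genes and 85 in all. Of the 9 genes 4 had an unadjusted p below 0.05 in edgeR, Cth (-0.75 ± 0.23 in log2 units, SE), Bhmt (-0.74 ± 0.23), Gnmt (-0.51 ± 0.15) and Cbs (-0.50 ± 0.18), as had 1193 of 13597 genes tested. Their adjusted p over all genes were 0.298, 0.298, 0.252 and 0.394. Gnmt was thus called for PE on the MD and not on the CD, and the difference between the diets did not pass. The interaction of Bhmt2 was 0.0014, with a 95% interval of -0.22 to 0.22.

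In the order of the 4 group means, Gnmt ran from CD + Veh through CD + PE and MD + Veh to MD + PE, and only MD + PE stood apart from its neighbour. Pemt had the same order, with MD + Veh apart from CD + PE and the other neighbours overlapping. For MD + Veh and CD + PE the share of all genes that lie apart was not computed. For Mat1a, Ahcy, Bhmt2, Cbs, Cth and Chdh all neighbouring groups overlapped, and for Bhmt the values of MD + Veh met those of MD + PE only at 3380 and 3395 CPM.

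Windows before the annotated starts of the genes that were called, and of Bhmt2 for comparison with Bhmt, are shown for reference. RefSeq windows of 250 bases were at hand for 7 of the 9 genes (10 windows, GRCm38.p6) and not used for Mat1a and Cth. They were searched on both strands for AGGTCA, a hexamer recognised by many nuclear receptors, for CCAAT, for GGGCGG (the GC box), for TATAAA and for CACGTG (the E-box). Capitals mark matches on either strand, the sequences run 5′ to 3′ on the gene's own strand, and all of them are on the minus strand.
Gnmt, chr17:46729166-46729415: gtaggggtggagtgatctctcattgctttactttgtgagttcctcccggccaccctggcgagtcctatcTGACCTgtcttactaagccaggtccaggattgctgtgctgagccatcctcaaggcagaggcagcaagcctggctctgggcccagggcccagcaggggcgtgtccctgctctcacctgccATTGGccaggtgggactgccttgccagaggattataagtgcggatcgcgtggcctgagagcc
Pemt, upstream start, chr11:60040189-60040438: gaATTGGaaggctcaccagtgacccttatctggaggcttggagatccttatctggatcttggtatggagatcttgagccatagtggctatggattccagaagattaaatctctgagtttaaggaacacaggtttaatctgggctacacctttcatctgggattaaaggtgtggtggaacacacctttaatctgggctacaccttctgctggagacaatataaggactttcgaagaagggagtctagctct
Pemt, downstream start, chr11:60037006-60037255: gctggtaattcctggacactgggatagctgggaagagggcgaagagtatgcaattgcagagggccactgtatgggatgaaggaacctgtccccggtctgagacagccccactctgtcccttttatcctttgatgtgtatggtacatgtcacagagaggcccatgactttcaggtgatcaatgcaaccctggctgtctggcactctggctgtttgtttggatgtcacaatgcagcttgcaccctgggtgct
Bhmt, chr13:93637759-93638008: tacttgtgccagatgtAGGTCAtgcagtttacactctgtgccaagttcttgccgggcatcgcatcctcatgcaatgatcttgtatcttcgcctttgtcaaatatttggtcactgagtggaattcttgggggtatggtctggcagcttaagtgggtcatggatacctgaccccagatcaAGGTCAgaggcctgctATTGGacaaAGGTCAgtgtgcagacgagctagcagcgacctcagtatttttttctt
Bhmt2, chr13:93674303-93674552: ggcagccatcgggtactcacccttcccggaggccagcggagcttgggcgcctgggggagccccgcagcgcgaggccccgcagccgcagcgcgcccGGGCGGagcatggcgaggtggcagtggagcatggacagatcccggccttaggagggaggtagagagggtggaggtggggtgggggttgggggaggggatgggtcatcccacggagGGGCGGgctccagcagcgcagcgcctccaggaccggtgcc

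Bhmt had 3 matches to AGGTCA, at 234, 72 and 47 bases before its start, and a CCAAT match at 56, whereas Bhmt2 had 2 GC boxes, at 155 and 40, in a window of 74% G and C. Gnmt had 1 AGGTCA match, read on the other strand, at 181 bases and a CCAAT match at 62. One of the Pemt windows held a CCAAT match at 248 bases and the other held none of these letters. Among 32851 windows of this length, AGGTCA was found in 14%, CCAAT in 33.8%, GGGCGG in 32.7%, TATAAA in 12.4% and CACGTG in 6.02%. A match is a description of the letters in the window and no evidence of binding.

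Bhmt and Bhmt2 are neighbours on the minus strand of chromosome 13, with 17758 bases between them, and their coding sequences are 75.4% identical over the aligned bases. The 5′ end of Bhmt2 overlaps Dmgdh, the dimethylglycine dehydrogenase that acts after Bhmt, on the other strand. The ratio of Bhmt to Bhmt2 counts within a library does not depend on the scaling between libraries, and it was examined after the levels had been seen. Adjustment over the 8 ratio tests does not cover that choice, so the p-values given here describe a difference already seen. On the control diet it was 9.47, 12.7, 10.8 and 8.68 with vehicle and 15.5, 15.01, 16.3, 10.5 and 11.9 with PE. On the MD it was 18.96, 22.2, 22.7, 21.8 and 22.2 with vehicle and 18.92, 17.2, 14.6, 17.1 and 17.4 with PE. All MD + Veh mice were above all other mice, MD + PE replicate 1 by the smallest margin. The ratio was 21.6 ± 1.5 (SD, n = 5) in MD + Veh against 10.4 ± 1.77 (n = 4) in CD + Veh (two-sided exact permutation p = 0.00794, the smallest this design allows, adjusted p = 0.0317 over 8 tests). In MD + PE it was 17.0 ± 1.55 (SD, n = 5), lower than in MD + Veh (exact permutation p = 0.00794, adjusted p = 0.0317), whereas CD + PE (13.8 ± 2.51) against CD + Veh (adjusted p = 0.0952) and MD + PE against CD + PE (adjusted p = 0.0889) did not pass the same exact test.

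Mat1a is the liver form of methionine adenosyltransferase and Mat2a the form of other tissues and of dividing cells. The ratio of Mat1a to Mat2a averaged 33.6 ± 4.54 (SD) with vehicle and 31.6 ± 5.28 with PE on the control diet, and 34.8 ± 7.37 with vehicle and 23.4 ± 5.96 with PE on the MD. The groups overlapped, with 26.9 to 46.7 in MD + Veh and 16.5 to 32.3 in MD + PE, and none of the 4 comparisons passed after adjustment (MD + PE against MD + Veh, exact permutation p = 0.0238, adjusted p = 0.0635).

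**Figure D3:**
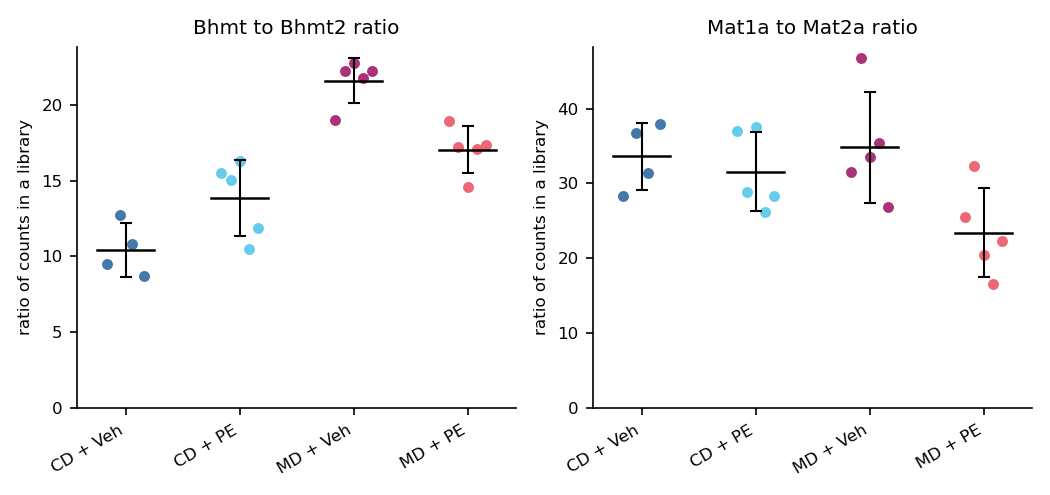
Ratio of counts within a library (y axis, from 0) of Bhmt to Bhmt2 and of Mat1a to Mat2a in the 4 groups (x axis), with 1 point per mouse and the mean ± SD as bars. The Bhmt to Bhmt2 ratio lies between 18.96 and 22.7 in MD + Veh, above all mice of the other groups, while the groups overlap for Mat1a to Mat2a.

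Other genes around these enzymes were read from 5 lists of 74 genes, of which Aldh1l2 and Pcyt1b did not pass the filter and 72 were tested. In MD + Veh compared with CD + Veh 12 of 72 (16.7%) were called, 10 higher and 2 lower, beside 10.4% of all genes tested. The median log2 fold change over the lists was -0.02. The cysteine, taurine and sulfide list had 4 of 13 genes higher. Among them were Gclc (0.91 ± 0.13, adjusted p = 0.000151) and Gss (0.76 ± 0.12, adjusted p = 0.000329) of glutathione synthesis. The sulfur oxidation genes Suox (0.59) and Ethe1 (0.52) were the others. Gclm, also of glutathione synthesis, was not called, since its log2 fold change of 0.31 (adjusted p = 0.0181 by edgeR) was under the limit. The list of phosphatidylcholine synthesis and choline transport had 3 of 15 higher, Chpt1 (1.04 ± 0.09, adjusted p = 7.73e-07), Chka (1.35) and Selenoi (0.52). Chka and Chpt1 carry out the first and last steps from choline to phosphatidylcholine in the route that runs parallel to Pemt. Other genes of that route were not called. Chkb averaged 40.1 CPM in CD + Veh and 39.5 CPM in MD + Veh, Pcyt1a 72.1 and 67.6 CPM, and Cept1 38.4 and 46.1 CPM.

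Chpt1 rose from 139 ± 13.7 CPM (SD, n = 4) in CD + Veh to 285 ± 19.7 CPM (n = 5) in MD + Veh, while Pemt fell. In the betaine and glycine list 2 of 8 rose, Gldc (0.95) of the glycine cleavage system and Sardh (0.45), which oxidises the sarcosine made by Gnmt. Of 19 genes of the methionine cycle, salvage and methyltransferases Gamt (-0.46), which makes creatine, and As3mt (-0.54), which methylates arsenic, fell. With the clock score as a covariate 3 of these 12 genes were called in edgeR, Chpt1, Gss and Suox. Chka then had a log2 fold change of 0.26 (adjusted p = 0.592). With the library division as a covariate 10 were called. Sardh was lost without CD + Veh replicate 1, 3 or 4 or MD + Veh replicate 2, 3 or 4 (adjusted p 0.0544 to 0.0914), and As3mt without CD + Veh replicate 1 or 4 or MD + Veh replicate 1, 3 or 5 (0.0781 to 0.142).

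On the control diet PE changed 5 of 72 genes (6.94%), 4 higher and 1 lower, beside 2.92% of all genes tested. Csad, of taurine synthesis, rose by 1.03, Gclc by 0.72, Gss by 0.50 and Chpt1 by 0.50 on the log2 scale, and Mthfd1l, a mitochondrial folate enzyme of low level, fell by 1.68 from 1.60 ± 0.333 CPM (SD, n = 4). DESeq2 called 9 of the 72, and 523 of 13597 genes in all. With the library division as a covariate, only Gclc of these 5 was called, and with the clock score only Chpt1. All CD + Veh libraries lie before the division and all CD + PE libraries after it. The term for the division rests on MD + Veh alone, and that fit cannot separate library order as a whole from PE. The clock score lay between -3.88 and -2.56 in CD + Veh and between -2.48 and 0.92 in CD + PE. PE on the control diet and the score thus cannot be told apart. Mthfd1l was lost without CD + PE replicate 1, 2, 3 or 5 or CD + Veh replicate 1, 2 or 4 (adjusted p 0.0525 to 0.109), and Gss without CD + PE replicate 3 or 5 or CD + Veh replicate 2 or 4 (0.0534 to 0.0847). Mthfd1l was also lost with no filter on low counts (0.0738) and had no adjusted p in DESeq2, and Gss was lost with only the 2 groups compared (0.0765).

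On the MD, PE changed 3 of 72 (4.17%), all lower, beside 1.08% of all genes tested. Aldh1l1, which releases carbon dioxide from formyl folate and is abundant in hepatocytes, fell by 0.63 (SE 0.12, adjusted p = 0.00925), from 1055 ± 36.7 CPM (SD, n = 5) in MD + Veh to 680 ± 122 CPM (n = 5) in MD + PE. Pcyt2, of phosphatidylethanolamine synthesis, fell by 0.38 (adjusted p = 0.0156), close to the fold change limit. Mpst, a sulfurtransferase named here because it completes the count of 3, fell by 0.42 (adjusted p = 0.0214). Pcyt2 came under the fold change limit (-0.38 to -0.35) without CD + Veh replicate 1 or 4, MD + Veh replicate 1, 2 or 5 or MD + PE replicate 2, 3 or 5. Mpst did so without MD + Veh replicate 5 (-0.36) or MD + PE replicate 4 (-0.35). Its adjusted p rose to between 0.0512 and 0.0756 without MD + PE replicate 2, 3 or 4. Pcyt2 was also under the limit with RLE normalization (-0.371), DESeq2 (-0.371) and only the 2 groups compared (-0.365), and Mpst was lost with only the 2 groups compared (adjusted p = 0.0967). None of the 3 was called with the library division as a covariate, where Gnmt was (log2 fold change -0.65, adjusted p = 0.0472). Only MD + Veh has libraries on both sides of the division, so the term for it rests on that group. All PE libraries come after all vehicle libraries, so this fit cannot separate PE from library order as a whole.

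With PE on both diets 7 of 72 (9.72%) were called, 2 higher and 5 lower, beside 4.61% of all genes tested. Chpt1 (0.76) and Hnmt (0.46), a histamine methyltransferase, rose, and Got1 (-1.004), As3mt (-0.62), Gamt (-0.61), Aldh1l1 (-0.65) and Pcyt2 (-0.48) fell. Hnmt was under the fold change limit without CD + PE replicate 2 (0.376), As3mt was lost without CD + PE replicate 3, 4 or 5 or MD + PE replicate 1 (adjusted p 0.0551 to 0.0635), and Got1 without MD + PE replicate 3 or 4 (0.0519 to 0.0595). With only the 2 groups compared, As3mt (0.0696) and Got1 (0.0549) were lost as well. The interaction term called none of the 72 genes by edgeR, with 17 at an unadjusted p below 0.05 (1193 of 13597 genes tested). DESeq2 called 2 of the 72, and 85 genes in all.

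**Figure D4:**
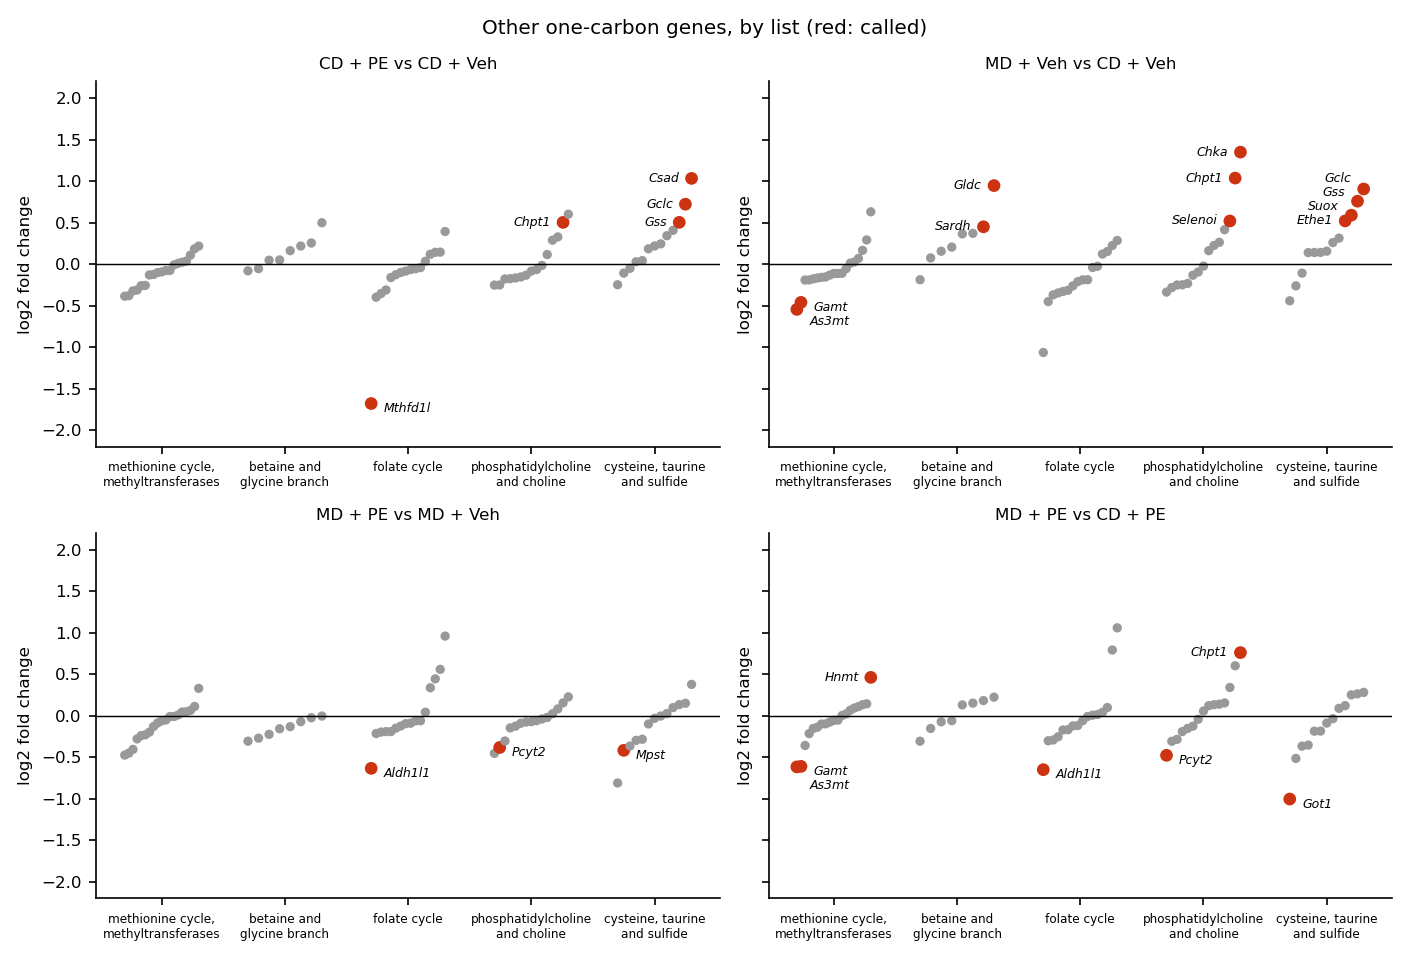
Log2 fold change (y axis) of 71 of the 72 tested genes of the 5 lists (x axis) in the 4 comparisons, ranked within each list, with called genes in red and named. For the diet alone 11 points are red, 9 of them above 0, and for PE on the MD 3 are red, all below 0.

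Across the 19 libraries, Gnmt and Pemt had the closest log2 levels among the 9 genes (Pearson's r 0.862), followed by Gnmt with Bhmt2 (0.824) and with Mat1a (0.767). Bhmt had its lowest value with Pemt (-0.366), which was 0.180 after subtracting group means. After subtracting group means the highest values were those of Gnmt with Ahcy (0.857) and Cbs with Cth (0.827). The value of Bhmt with Bhmt2 was 0.706 compared with 0.158 before subtraction. These values describe libraries that share scaling and groups and carry no test.

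**Figure D5:**
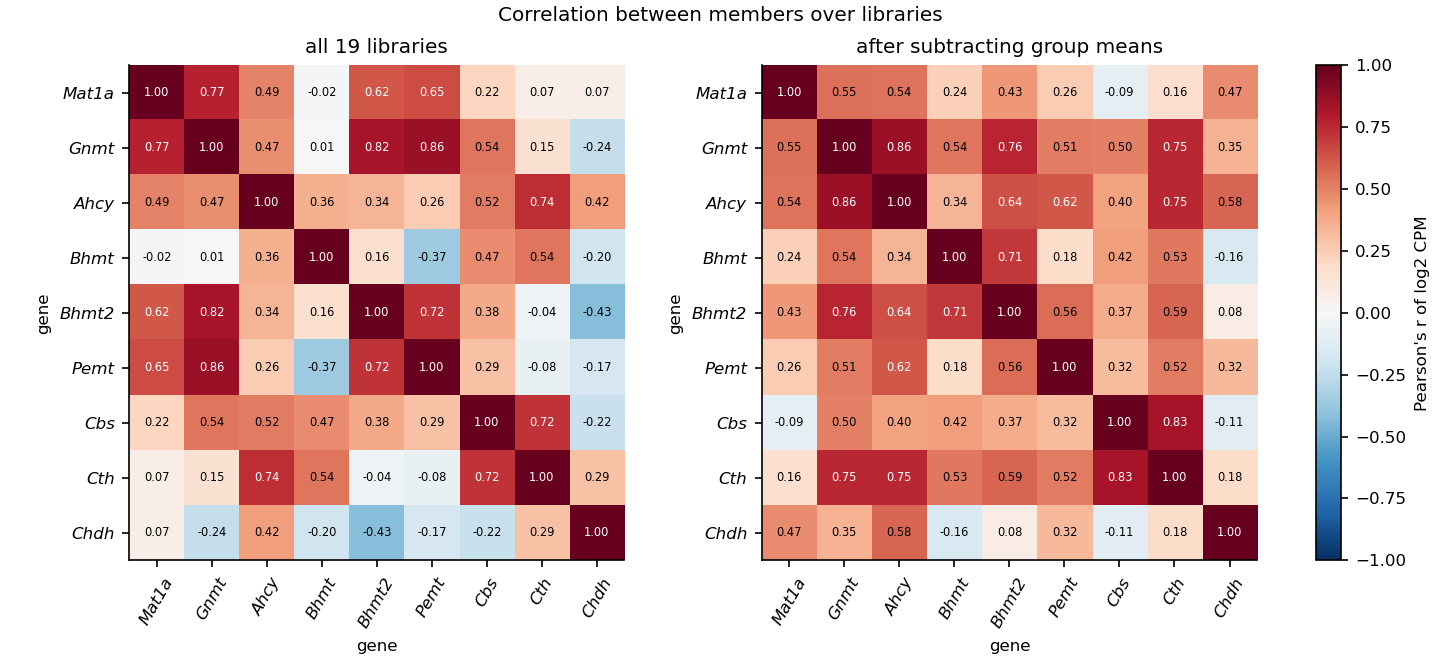
Pearson's correlation of log2 CPM between the 9 genes (both axes) over 19 libraries, left as measured and right after subtracting group means, with colour from -1 to 1. On the left Gnmt, Pemt, Bhmt2 and Mat1a form a block of values from 0.62 to 0.86, and on the right Cbs with Cth is at 0.83 and Gnmt with Ahcy at 0.86.

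Over all genes tested, the gene whose level over the 19 libraries was most like that of each was Selenbp1 for Gnmt (r 0.951), Ttr for Pemt (0.968), Bhmt1b for Bhmt (0.964), Aldh1l1 for Bhmt2 (0.911), Klb for Mat1a (0.907), Ivd for Cth (0.905), Hpd for Ahcy (0.890), Retsat for Chdh (0.865) and Nags for Cbs (0.857). These are the nearest by Pearson's r. By Spearman's correlation Bhmt1b, Klb, Ivd and Retsat also ranked 1, whereas Aldh1l1 ranked 98 for Bhmt2, Hpd 26 for Ahcy and Nags 15 for Cbs. Bhmt1b, whose coding sequence is 99.7% identical to that of Bhmt, may share reads with it. Ahcy is also uncertain, since 79.3% of the 31-base stretches of its transcript occur in other genes, mainly the retrogene Ahcyl, which held at most 0.874% of the Ahcy count. No such stretch of Mat1a, Gnmt, Pemt, Cth or Chdh was shared.

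The genes lie on 6 chromosomes in GRCm39. Gnmt (chr17:47036587-47040107) and Cbs (chr17:31827868-31856646) are on the minus strand of chromosome 17, Mat1a (chr14:40826926-40846384) and Chdh (chr14:29730856-29763372) on the plus strand of chromosome 14, and Ahcy (chr2:154901230-154916422), Pemt (chr11:59861440-59950424), Bhmt2 (chr13:93792228-93811228) and Cth (chr3:157599868-157630739) on the minus strand. Counts are of whole genes, so that isoforms of Pemt were not separated. The spans of genes on the other strand overlap those of Gnmt (Pex6), Bhmt2 (Dmgdh) and Chdh (Cacna1d and Il17rb). Reads from bases that the transcripts of such a pair share can be told apart only by strand.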

How the data were processed

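Liver RNA of 19 mice was sequenced from poly(A) libraries, 1 per mouse, and all carried the same batch label. The authors trimmed reads with fastp 0.23.4, quantified them with Salmon 1.10.3 against the mouse transcriptome of GRCm39 and deposited estimated counts per gene as whole numbers, without normalization. Libraries were stranded, and Salmon inferred the library type from the reads. Estimated counts share reads between near-identical genes by a model, which bears on Bhmt and Ahcy. Groups came from the sample labels, and diets and PE dose from the study's methods. Total counts ran from 10398820 to 15456729 per library, and intervals are for 95% confidence.

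The counts went into edgeR 4.0.16 under R 4.3.3 (TMM, filterByExpr by group, quasi-likelihood F test, 19 libraries in 1 fit). SE is the absolute log2 fold change divided by the square root of F. Ratios within libraries were compared by two-sided exact permutation tests. Lists of 74 pathway genes and 12 marker lists were used, and up to 6 called genes per pathway list were named by the largest fold change. A gene of these lists is counted with them and not reported here by itself. The 9 genes and the lists were chosen with earlier results of these data known. Alternatives were RLE normalization, DESeq2 1.42.0, no or a stricter filter (1 CPM on average and 10 counts throughout a group), a robust dispersion, dropping the fold change limit, fitting the compared groups alone, a replicate block, the division between library numbers 45 and 46 and a clock score as covariates, and each library left out. Summing near-identical copies and the within-library ratios were chosen after seeing the data. Within groups, over 36 pairs of libraries, identical counts made up no more than 1.85% of genes (minimum 20 counts). Residuals of 27 pairs of libraries with the same number correlated with a median of 0.0293, and 6 exceeded 0.1, so replicates were treated as unpaired. Positions are those of GENCODE vM39, promoter windows those of RefSeq (GRCm38.p6). The fitting was tested on simulated data.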

Additional observations from a re-analysis of the deposited data

Results flagged for a closer look

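In 4 of 36 combinations of gene and group, 1 mouse stood apart from the rest, where chance gives about 1 in 20. The measure is the gap to the nearest mouse over the range of the group, against a critical value of 0.71 for 5 mice. It was 0.933 for Gnmt in MD + PE replicate 4 (517 CPM, the next at 758 CPM). It was 0.738 for Bhmt in MD + Veh replicate 1 (3380 and 4107 CPM), the library with the highest skeletal muscle sum (1986 CPM). It was 0.728 for Pemt in CD + PE replicate 2 (174 and 205 CPM), the library with the highest Kupffer cell sum (358 CPM). It was 0.792 for Chdh in MD + PE replicate 3 (238 and 204 CPM). Without these libraries in turn, the calls of Gnmt, Bhmt and Pemt given in the report passed in every fit.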

How the results depend on the processing

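Counts of the 9 genes called were 0, 3, 1, 2 and 0 for PE on the CD, the diet with vehicle, PE on the MD, the diet with PE and the interaction. With DESeq2 they were 1 for PE on the CD (Cth) and 2 for PE on the MD (Gnmt and Bhmt), and with the clock score as a covariate 0 for the diet with vehicle. The cause was not tested. Leaving out 1 library gave 0 to 1, 2 to 3, 1 to 2, 2 to 3 and 0 to 0 called genes. With PE on the CD the 1 was Cth, without CD + Veh replicate 2 or MD + PE replicate 4, and with PE on the MD the 2 were Gnmt and Bhmt, without MD + PE replicate 1. Gnmt was called on the MD in each of 19 such fits (adjusted p 0.00324 to 0.0150) and under each of the other alternatives run, as were Gnmt and Pemt in the diet with PE. Bhmt and Pemt were called for the diet with vehicle in 19 of 19 fits and under each alternative except the clock score.

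Values near 0 that did not pass changed sign. For Chdh in the interaction they were 0.00173 with RLE, 0.00171 with DESeq2 and 0.00321 with the replicate block. For Mat1a with PE on the CD they were -0.00535 with no filter and -0.0163 with the library division. For Bhmt2 in the interaction they were -0.00145 with the stricter filter, -0.00109 with the block, -0.00130 with the division and -0.00396 with the clock score. With the clock score, Bhmt (-0.0372) and Cbs (-0.0136) with PE on the CD, and Mat1a (0.0325) and Cbs (-0.00734) for the diet with vehicle, also changed sign. Leaving out 1 library gave -0.0623 to 0.103 for Mat1a with PE on the CD, -0.0644 to 0.0536 for Chdh and -0.0465 to 0.0532 for Bhmt2 in the interaction, and -0.0335 to 0.0843 for Chdh in the diet with PE.

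The replicate block left the 9 genes' calls at 0, 3, 1, 2 and 0, with 419, 1448, 178, 606 and 41 genes called in all. Counts over all genes were 37 (PE on the CD) and 33 (PE on the MD) with the library division and 296 (PE on the MD) with DESeq2. The fit with the division cannot separate library order from PE. For the interaction they were 54 with the division and 85 with DESeq2, for the diet with vehicle 380 with the clock score, and with only the 2 groups compared 73 for PE on the MD. A fit of only 2 groups cannot give the interaction.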
